A study of Homo sapiens with 27 samples.

Results

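SW480 cells that had been made resistant to oxaliplatin (OX) were compared with untreated SW480 cells at the level of the whole transcriptome. SW480 is a line established from a primary colon adenocarcinoma. The members were the libraries that the labels give as SW480 OX resistant (OX res, 3 libraries) or SW480 untreated (WT, 3 libraries), so that 6 of the 27 libraries of the series were compared. OX res cells had been kept for about 6 months in OX that was stepped up from 5 to 35 µM, while the WT cells had received no drug. The other libraries used here were 3 of SW480 made resistant to 5-fluorouracil (5-FU res, 5 to 70 µM over about 6 months) and the WT and OX res libraries of HCT116 and DLD-1, which are further colorectal cancer lines. The sources do not say whether the resistant population was derived more than once or cloned, nor whether replicate libraries stem from cultures grown apart. The p-values therefore measure the spread between libraries, which may be technical.

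Oxaliplatin is a platinum compound that binds DNA and forms intrastrand and interstrand cross-links, which are removed by nucleotide excision repair, the Fanconi anaemia pathway and homologous recombination. Cells can also limit the damage by exporting the drug, by binding platinum to thiols such as glutathione and metallothioneins, or by blocking apoptosis. Oxaliplatin is further known to disturb ribosome production, and resistant carcinoma cells often lose epithelial junctions and gain mesenchymal genes.

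The deposited values were FPKM, fragments per length of transcript and per sequenced library, for 26255 gene symbols, and each library was rescaled by its own sum to TPM, in which all libraries have the same total. Of these genes, 14039 reached 1 TPM in at least 3 of the 9 SW480 libraries and were tested on log2(TPM + 1), a scale that understates the change of low genes. Read totals are not part of FPKM, but the step between low values put the depth of the other 5 libraries at 71.1 to 87.5% of that of WT replicate 1. Between 12552 and 12786 genes reached 1 TPM in a WT library and between 13541 and 13592 in an OX res library. Cytosolic ribosomal protein genes took 22.2 ± 0.699% of all TPM in WT and 16.8 ± 0.225% in OX res (SD, n = 3 each), a difference of −5.33 percentage points with an exact two-sided permutation p of 0.1, the smallest that 3 against 3 libraries can give. The median tested gene was 0.36 higher in OX res on the TPM scale. Median-of-ratios scaling, which sets each library so that its median gene keeps the same level, brought this to 0.01. Gene differences below are TPM values, list medians are given relative to the all-gene median of 0.36, and a direction that turns under median-of-ratios scaling is named where it is given.

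Gene length moved with the difference. Among 4 equal groups of 3401 genes by transcript length the median change was 0.05 in the shortest, 0.25 and 0.46 in the middle groups and 0.70 in the group of 5467 bases or longer. The longest genes lay 0.31 to 0.34 above the median of all genes in each OX res library, and among WT libraries their median was 0.08 in replicate 1, 0.02 in replicate 3 and −0.11 in replicate 2. WT replicate 2 was accordingly the lowest WT library for many long genes named below. With the trend on length removed, 569 genes were higher and 402 lower by more than 1, and list medians under that setting are given where they change what a list shows. The part of depth and of ribosomal content in any single difference was not tested.

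On the TPM scale 1930 genes (13.7% of those tested) were higher in OX res and 171 (1.22%) lower by more than 1 on the log2 scale at a limma adjusted p under 0.05. Under median-of-ratios scaling the numbers were 834 (5.94%) and 551 (3.92%), and all of the 834 and all of the 171 were also called on the other scale. Without the demand on size, 8053 genes (57.4%) were higher and 2032 (14.5%) lower on the TPM scale, against 34.4% and 34.2% under median-of-ratios scaling. These shares are the background for the counts of gene lists that follow, in which a gene was counted as higher or lower by its limma adjusted p alone.

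**Figure D1:**
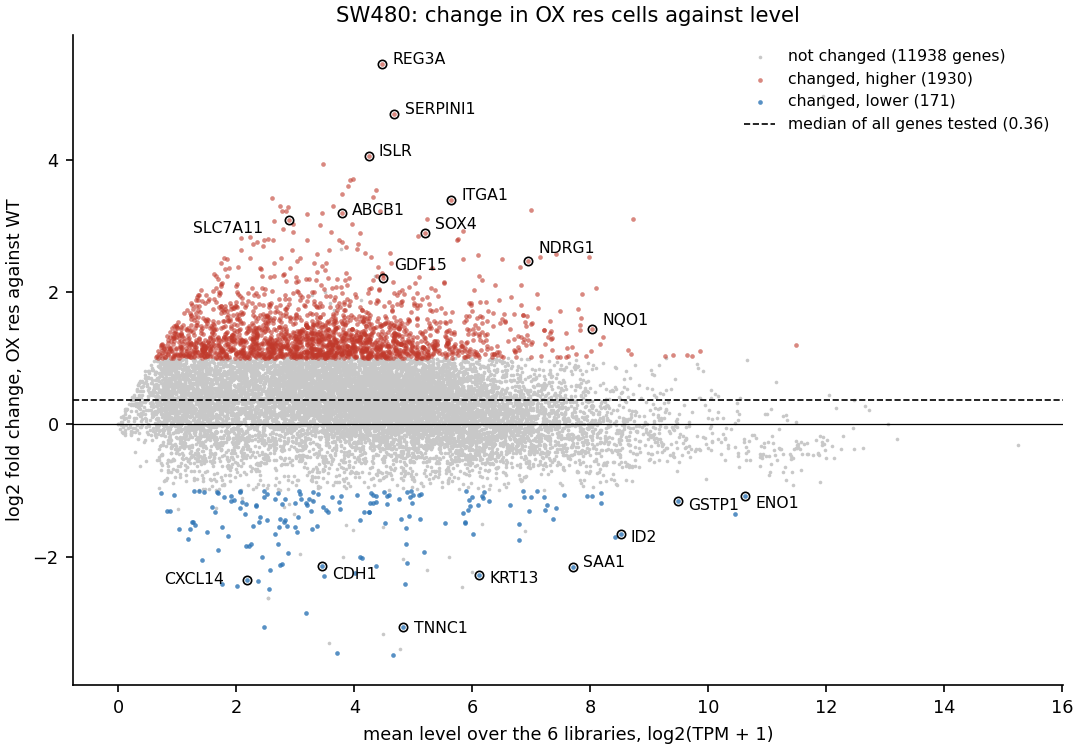
Each point is 1 of the 14039 tested genes, with its mean log2(TPM + 1) over the 6 WT and OX res libraries on the x axis and the log2 difference OX res minus WT on the y axis. The dashed line marks the median of 0.36, coloured points are the 1930 genes called higher and the 171 called lower, and circles mark genes named in the text.

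The largest rise belonged to REG3A, a secreted C-type lectin of the gut epithelium and pancreas (GRCh37 chr2:79384129-79386879, minus strand). It was listed at 0 TPM in the 3 WT libraries and at 40.7, 42.3 and 44.4 TPM in OX res. In 5-FU res it was 0, 0.263 and 0 TPM, so the transcript was detected at a level above 1 TPM in the OX res libraries alone among the SW480 libraries. With WT listed at 0 no fold is given, and the fitted difference of 5.44 on the log2(TPM + 1) scale (limma adjusted p 7.4e-10) depends on the pseudocount.

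SERPINI1, which encodes neuroserpin, an inhibitor of tissue plasminogen activator (GRCh37 chr3:167453031-167543357, plus strand), measured 1.12, 1.01 and 0.633 TPM in WT and 48.0, 45.1 and 51.3 TPM in OX res. The groups were far apart, with a log2 difference of 4.68 ± 0.12 (SE; limma adjusted p 1.3e-09), and 5-FU res lay between them at 17.6 to 21.9 TPM. ISLR, a secreted leucine-rich repeat protein, rose from 1.44, 0.671 and 1.41 TPM to 31.5, 37.1 and 35.2 TPM, a log2 difference of 4.05 ± 0.15 (limma adjusted p 1e-08). ISLR was 3.11 to 3.76 TPM in 5-FU res, so all 3 OX res libraries were also above all 3 of those. TMEM200A, a membrane protein of little known function, rose from at most 0.548 TPM to at least 18.9 TPM (3.93), and DPYSL3, a cytoskeletal regulator of the collapsin response mediator family, rose by 3.48. PEAK1, a pseudokinase that binds the actin cytoskeleton and signals below receptor tyrosine kinases, rose by 3.43. SMCO2, VAT1L and FGD5, the last of which encodes an exchange factor for CDC42, rose by 3.71, 3.70 and 3.54. SPRY4-IT1, an RNA annotated within SPRY4, rose by 3.6, but its reads overlap the host gene and its value is uncertain.

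Among genes whose groups did not overlap, the largest fall with an unambiguous gene model was that of TNNC1, the slow skeletal and cardiac troponin C (GRCh37 chr3:52485116-52488057, minus strand). It measured 42.9, 58.4 and 47.7 TPM in WT and 4.74, 5.60 and 4.76 TPM in OX res, a log2 difference of −3.06 ± 0.11 (limma adjusted p 7.5e-09). In 5-FU res TNNC1 stood at 92.1 to 99.96 TPM, above every WT library. LCN2, the iron-siderophore binding protein lipocalin 2, fell from 44.7, 50.4 and 47.3 TPM to 11.2, 9.07 and 5.05 TPM (−2.42 ± 0.20, limma adjusted p 2.8e-06) and was 60.9 to 73.5 TPM in 5-FU res. CXCL14, a chemokine of epithelia, fell from 6.48, 6.49 and 6.67 TPM to 0.215, 0.310 and 1.05 TPM (−2.35 ± 0.17, limma adjusted p 9.4e-07) while 5-FU res held 34.8 to 37.5 TPM. These 3 genes therefore lay below WT in the OX res libraries and above WT in the 5-FU res libraries.

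Further falls were those of the adhesion receptor ADGRG2 (−2.45), the serine protease PRSS56 (−2.41), the taste receptor transporter RTP3 (−2.37) and the retinol-binding protein RBP7 (−2.30). PRSS56 and RTP3 were below 1 TPM in every 5-FU res library as well. IPO11-LRRC70 (−3.07), EIF4EBP3 (−2.86) and SCARNA9 (−2.49) completed the 10 largest, and they are uncertain because the first is a readthrough of neighbouring genes, the second overlaps another gene model and the third is a small nuclear RNA.

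**Figure D2:**
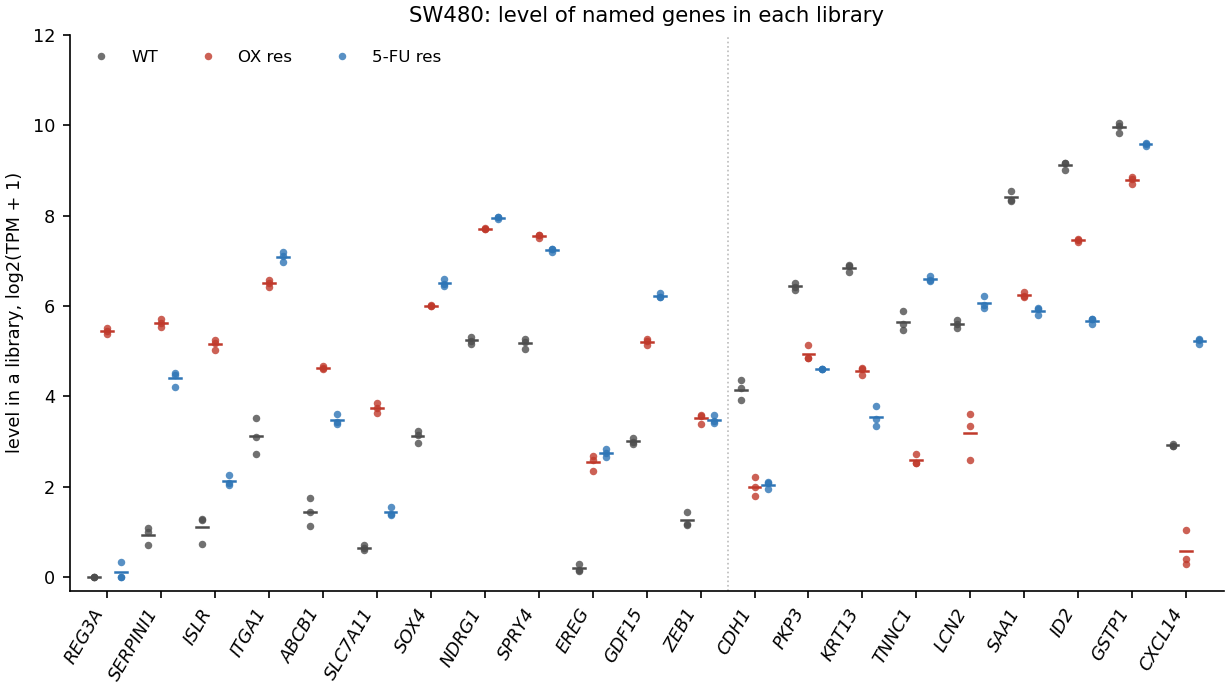
Level of 21 named genes as log2(TPM + 1) on the y axis, with 1 point per WT, OX res and 5-FU res library and a short bar at each group mean; genes left of the dotted line were higher in OX res than in WT and genes right of it lower. REG3A, SERPINI1, ISLR, ABCB1 and SLC7A11 stand above both other groups in OX res, and TNNC1, LCN2 and CXCL14 stand below both.

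The list of EGF receptor ligands and MAPK feedback was one of those that moved furthest. It holds EGF receptor ligands, EGF and ephrin receptors, feedback genes that ERK induces to restrain its own pathway, and other genes downstream of ERK. The ligands EGF, AREG, BTC, EPGN and NRG1 were too low to be tested. Of 25 tested members of 31, 22 were higher and 1 was lower, and 15 of the higher ones passed 1 on the log2 scale, with a median 0.88 above that of all genes. Median-of-ratios scaling gave 20 higher and 2 lower, 9 of them beyond 1. SPRY4, a Sprouty inhibitor of receptor tyrosine kinase signalling, measured 37.3, 32.0 and 36 TPM in WT and 179.9, 190.2 and 188 TPM in OX res (2.38 ± 0.06, limma adjusted p 1.3e-09). The groups were far apart, and 5-FU res was also high, at 146 to 153 TPM. EREG, which encodes the EGF receptor ligand epiregulin, went from 0.0983, 0.219 and 0.107 TPM to 5.05, 4.11 and 5.36 TPM (2.35 ± 0.12, limma adjusted p 7.9e-08), and the ephrin receptor EPHA4 rose by 2.22.

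EGFR itself, chosen after its values were seen, stood at 13.1, 6.68 and 11.6 TPM in WT and 31.6, 33.8 and 35.3 TPM in OX res (1.64 ± 0.19, limma adjusted p 2.2e-05), with no overlap between the groups. In 5-FU res EGFR was 10.3 to 12.4 TPM, within the range of WT. The dual-specificity phosphatases DUSP5, DUSP4 and DUSP6, which remove phosphate from ERK and were likewise chosen after their values were seen, rose by 2.19, 1.72 and 0.92. EGR1, an immediate early transcription factor, was the member that fell, from 433, 379 and 430.0 TPM to 295, 312 and 298 TPM (−0.45 ± 0.05, limma adjusted p 2.9e-05).

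Collagens, laminins and integrins gave 21 higher and 2 lower of 28 tested, 13 of the higher ones beyond 1, and a median 0.62 above that of all genes, or 0.36 with the trend on length removed. Median-of-ratios scaling gave 18 and 5. ITGA1, the alpha chain of a collagen receptor, rose from 10.4, 5.64 and 7.52 TPM to 90.0, 84.2 and 94.0 TPM (3.39 ± 0.15, limma adjusted p 4.2e-08), and 5-FU res reached 125 to 144 TPM. COL7A1, the collagen of anchoring fibrils, and ITGAV, a chain of vitronectin receptors, rose by 2.00 and 1.91. The basement membrane collagen COL4A2 fell by 0.79, from 11.2, 11.2 and 11.3 TPM to 5.64, 6.54 and 6.13 TPM.

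Epithelial junction genes split in both directions, with 16 higher and 16 lower of 41 tested and a median 0.51 below that of all genes. Under median-of-ratios scaling 10 were higher and 25 lower. CDH1, the E-cadherin of adherens junctions (GRCh37 chr16:68771195-68869440, plus strand), measured 19.4, 14.2 and 17.1 TPM in WT and 2.47, 3.66 and 2.96 TPM in OX res (−2.15 ± 0.14, limma adjusted p 5e-07). The groups were far apart, and 5-FU res, at 2.85 to 3.27 TPM, lay within the range of OX res. The desmosomal plakophilin PKP3 fell by 1.49 and the epithelial clathrin adaptor AP1M2 by 1.40. Other members of the list rose, among them the desmosomal plaque protein DSP, from 42.7, 27 and 38.7 TPM to 94.8, 91.2 and 96.8 TPM (1.39). The desmosomal cadherin DSG2 rose by 1.34 and the epithelial transcription factor EHF by 1.55. The desmosome therefore held members on both sides. The list as a whole was shifted down relative to all tested genes, of which 57.4% were higher and 14.5% lower on the TPM scale.

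Of the mesenchymal list, 29 of 42 members were tested, 20 were higher and 4 lower, and the median lay 0.27 above that of all genes, with 16 higher and 8 lower under median-of-ratios scaling. ZEB1, a repressor of CDH1, rose from 1.70, 1.27 and 1.21 TPM to 11.1, 9.38 and 10.9 TPM (2.26 ± 0.11, limma adjusted p 8.3e-08), and SNAI2, a further repressor of CDH1, rose by 1.40. VIM, the intermediate filament vimentin, was already at 631 to 656 TPM in WT and rose by 0.85 to 1117 to 1196 TPM. The related repressor ZEB2 was listed at 0 in all 6 libraries. MYL9 and GAS6, which encode a myosin light chain and a receptor tyrosine kinase ligand, fell by 0.82 and 0.65.

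In the TGF-beta signalling list TGFB2 and ID2 marked the extremes of 42 tested members, of which 31 were higher and 6 lower (24 and 10 under median-of-ratios scaling; median 0.32 above that of all genes). TGFB2, a ligand of the pathway, rose from 0.686, 0.509 and 0.635 TPM to 5.71, 5.27 and 5.40 TPM (2.00 ± 0.10, limma adjusted p 1e-07). ID2, a helix-loop-helix inhibitor of differentiation factors, fell from 568, 516 and 574 TPM to 170.2, 176 and 178 TPM (−1.66 ± 0.05, limma adjusted p 5.2e-09). ID2 was lower still in 5-FU res, at 47.4 to 51.6 TPM. TGFB1 rose by 0.81, which is 0.40 under median-of-ratios scaling. SMAD4, a signal transducer of the pathway chosen after its values were seen, was too low to be tested. It measured 0.152 to 0.305 TPM in WT and 0.339 to 0.370 TPM in OX res.

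Keratins, the intermediate filaments of epithelia, divided into 7 higher and 6 lower of 16 tested (4 and 8 under median-of-ratios scaling), 3 of each beyond 1. KRT13, a keratin of stratified epithelia, fell from 106, 117 and 119 TPM to 23.7, 21.1 and 23.2 TPM (−2.28 ± 0.11, limma adjusted p 5.1e-08), and KRT6A and KRT17 fell by 1.69 and 1.04. KRT7, KRT86 and KRT81 rose by 1.27, 1.16 and 1.1. KRT6A, KRT81 and KRT86 have near-identical relatives, and reads may have been split between them.

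Markers of colorectal stem cells that the study itself named gave 5 higher and 2 lower of 10 tested of 13 (5 and 3 under median-of-ratios scaling). The list is the study's own choice and is not independent evidence of its direction. SOX2, a pluripotency factor, was 0.140, 0.278 and 0.254 TPM in WT and 4.06, 4.46 and 3.78 TPM in OX res (2.06 ± 0.10, limma adjusted p 7.1e-08), which was below the 13.5 to 14.4 TPM of 5-FU res. LGR5, the R-spondin receptor of intestinal stem cells, was listed at 0, 0 and 0.0282 TPM in WT and at 1.53, 1.61 and 1.46 TPM in OX res, whereas 5-FU res stayed at 0.112 to 0.142 TPM. Both genes were low, and their differences depend on the pseudocount. The more abundant integrin chains ITGAV and ITGB1 rose by 1.91 and 0.98, or 1.52 and 0.57 under median-of-ratios scaling. For each of them the WT and OX res libraries did not overlap. The adhesion molecule ALCAM rose by 0.59 (not called with the trend on length removed, 0.11), EPCAM and CD24 fell by 0.55 and 0.52, and POU5F1 (0.30) and NANOG (−0.10) did not pass the test. CD44 was 0.09 and did not pass on the TPM scale, and it was −0.32 under median-of-ratios scaling and passed at 0.17 without WT replicate 1. PROM1, ALDH1A1 and DPP4 were too low to be tested.

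WNT targets and intestinal stem cell genes gave 21 higher and 4 lower of 29 tested (16 and 8 under median-of-ratios scaling), with a median 0.44 above that of all genes. SOX4, a transcription factor of progenitor cells, rose from 8.43, 6.83 and 7.82 TPM to 63.3, 62.5 and 64.3 TPM (2.89 ± 0.08, limma adjusted p 1.3e-09), and 5-FU res held 85.8 to 95.1 TPM. The secreted WNT inhibitors DKK4 and DKK1, themselves WNT targets, rose by 1.83 and 1.6. The RNA-binding protein MSI1, of the crypt base, fell by 0.47.

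Most genes of intestinal differentiation were too low to test, since 15 of 56 passed the filter and 14 were listed at 0 in all 6 libraries. Of those tested 9 were higher and 3 lower (6 and 4 under median-of-ratios scaling). The tetraspanin TSPAN8, the adhesion molecule CEACAM1 and the transcription factor GATA6 rose by 2.12, 1.47 and 1.27, and the brush border protein VIL1 fell by 1. CDX2, the intestinal homeobox factor, fell from 45.5, 44.5 and 43.2 TPM to 30.3, 29.8 and 29.5 TPM (−0.56), and its mean in 5-FU res was 5.66 TPM. HNF4A, a further intestinal transcription factor, was at −0.27 and did not pass the test, but it passed without WT replicate 2 (−0.40) and under median-of-ratios scaling (−0.63).

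Transporters that carry platinum or export drugs gave 13 higher and 0 lower of 17 tested of 22, with a median 0.25 above that of all genes, or 0.08 with the trend on length removed, and median-of-ratios scaling gave 10 and 3. The leading member was ABCB1, the P-glycoprotein drug efflux pump (GRCh37 chr7:87132333-87342639, minus strand), at 2.34, 1.2 and 1.70 TPM in WT and 23.4, 23.7 and 24.4 TPM in OX res (3.20 ± 0.14, limma adjusted p 3.2e-08). In 5-FU res ABCB1 was 9.49 to 11.2 TPM, between the other groups. The copper transporter ATP7A, which also moves platinum, rose from 1.2, 0.871 and 1.11 TPM to 5.39, 4.72 and 5.57 TPM (1.6 ± 0.12, limma adjusted p 1e-06), with 5-FU res at 4.53 to 5.58 TPM. ABCC3, an exporter of organic anions, rose from 19.5, 17.2 and 19.9 TPM to 54.7, 56.2 and 57.7 TPM (1.53), and its 5-FU res libraries were lower at 25 to 27.1 TPM.

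The copper importer SLC31A1, through which platinum can enter, was 18.1, 14.5 and 16.9 TPM in WT and 31.6, 28.1 and 33.0 TPM in OX res (0.87, and 0.47 under median-of-ratios scaling). ATP7B, a further copper exporter, rose by 0.61 (0.25 under median-of-ratios scaling, but −0.06 with the trend on length removed). ABCG2, an efflux pump chosen after its values were seen, rose by 1.23 from below 0.1 TPM to 1.14 to 1.97 TPM. The glutathione conjugate pump ABCC2 was too low to be tested at 0.0412 to 0.0678 TPM in WT and 0.213 to 0.270 TPM in OX res, and the organic cation importer SLC22A2 was listed at 0 in all 6.

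The cystine-glutamate exchanger SLC7A11, which supplies cystine for glutathione (GRCh37 chr4:139085251-139163503, minus strand), led the glutathione and NRF2 list. It measured 0.636, 0.551 and 0.516 TPM in WT and 12.3, 11.3 and 13.3 TPM in OX res (3.08 ± 0.11, limma adjusted p 7.6e-09). In 5-FU res it was 1.57 to 1.93 TPM, and no value of the 3 groups overlapped with another group. HMOX1, the haem-degrading enzyme, rose from 11, 11.9 and 10.6 TPM to 44, 42.5 and 43.0 TPM (1.86 ± 0.10, limma adjusted p 1.5e-07), and NQO1, a quinone reductase, rose from 146, 135 and 137 TPM to 377, 368 and 393 TPM (1.44 ± 0.05, limma adjusted p 4.5e-09). All 3 are known targets of NRF2, and SLC7A11 is also a member of the integrated stress response list below.

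Across that list 24 were higher and 6 lower of 38 tested, and the median lay 0.12 above that of all genes, with 17 and 15 under median-of-ratios scaling, so the list as a whole sat close to the background. GSTP1, the most abundant glutathione transferase measured here, fell from 911, 1060.0 and 1006 TPM to 414, 462 and 448 TPM (−1.17 ± 0.06, limma adjusted p 8.5e-08), and 5-FU res stood at 739 to 783 TPM. TALDO1 of the pentose phosphate pathway and GSTO1 fell by 0.64 and 0.57.

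The metallothionein list held cysteine-rich proteins that bind metals and MTF1, the transcription factor that induces them, and gave 3 higher and 1 lower of 7 tested of 12 (2 and 2 under median-of-ratios scaling). MTF1 itself rose by 0.98, so that 2 of the 6 tested metallothioneins were higher. MT3 rose from 1.57, 2.85 and 2.58 TPM to 8.82, 11.1 and 10.2 TPM (1.75), while MT1A fell from 70.7, 84.4 and 94.5 TPM to 47.6, 41.5 and 25.2 TPM (−1.15). MT2A, the most abundant, was 2107, 2671 and 2502 TPM in WT and 2651, 2808 and 2558 TPM in OX res, and its groups overlapped (0.15, limma adjusted p 0.099, and −0.27 under median-of-ratios scaling). Without WT replicate 2 it passed at 0.22. The family has near-identical members, so its single values are uncertain.

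Nucleotide excision repair genes were near the background on the TPM scale, with 15 higher and 4 lower of 27, a median 0.11 below that of all genes and 4 higher and 13 lower under median-of-ratios scaling. ERCC4, part of the endonuclease that cuts 5′ of a lesion, rose by 1.23 and ERCC6, which acts in transcription-coupled repair, by 0.82, the latter turning to −0.04 with the trend on length removed. ERCC1, the partner of ERCC4, was 102, 98.8 and 98.9 TPM in WT and 131, 144 and 145 TPM in OX res, which is 0.48 on the TPM scale and 0.07 under median-of-ratios scaling. XPA, a damage verification factor, measured 30.4, 25.2 and 21.4 TPM in WT and 19.1, 17.9 and 21.7 TPM in OX res, and its groups overlapped (−0.36, limma adjusted p 0.023). Its call was lost without WT replicate 1 (−0.24), OX res replicate 1 (−0.35) or OX res replicate 2 (−0.31).

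Cross-link repair and recombination gave 19 higher and 5 lower of 35, and 10 and 16 under median-of-ratios scaling, with a median 0.03 below that of all genes. The Fanconi anaemia genes FANCI and BRIP1 rose by 1.01 each and the helicase BLM by 0.98, and BRIP1 was at 0.14 and not called once the trend on length was removed. RAD54L, a motor protein of recombination, fell from 33.8, 32.3 and 32.4 TPM to 20.6, 20.3 and 20.9 TPM (−0.65). Mismatch repair and translesion synthesis genes gave 14 higher and 1 lower of 18 tested (6 and 4 under median-of-ratios scaling). REV3L, POLK and REV1, which act in the bypass of lesions, rose by 1.31, 1.23 and 0.79, and the sliding clamp PCNA fell from 628, 592 and 595 TPM to 424, 393 and 435 TPM (−0.54).

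Genes that p53 can induce gave 17 higher and 4 lower of 24 tested (9 and 6 under median-of-ratios scaling), with a median 0.09 above that of all genes. PMAIP1, the BH3-only protein NOXA, rose from 19.6, 16.5 and 22.1 TPM to 64.5, 69.7 and 68.4 TPM (1.76 ± 0.10, limma adjusted p 1.8e-07), and GADD45A, a stress-induced growth arrest gene, rose by 1.11. PHLDA3, an inhibitor of AKT, fell from 91.5, 102 and 99.3 TPM to 48.3, 47.6 and 46.2 TPM (−1.03), and the ferredoxin reductase FDXR fell by 0.34. CDKN1A, the inhibitor p21, rose by 0.88 (0.47 under median-of-ratios scaling), from 72.7 to 77.7 TPM to 137 to 146 TPM. Among apoptosis regulators 23 were higher and 3 lower of 31 tested (17 and 8 under median-of-ratios scaling), led by PMAIP1, which is in both lists, the BH3-only protein BMF (1.52) and the caspase inhibitor XIAP (1.27), with falls of the BH3-only protein BID (−0.58) and the adaptor FADD (−0.32).

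The integrated stress response list holds genes that ATF4 induces when translation initiation is held back. It also holds ATF4 itself and genes of the unfolded protein response, such as HSPA5 and XBP1. Of 29 tested members of 32, 25 were higher and 4 lower, with a median 0.20 above that of all genes, or 0.41 with the trend on length removed. Median-of-ratios scaling gave 15 and 8. The largest rise in the list was that of SLC7A11 (3.08), described above with the glutathione and NRF2 list. ATF4, chosen after its values were seen, was at 0.36 on the TPM scale and −0.06 under median-of-ratios scaling. Because the response acts at promoters, the 300 bases around the start of its genes (250 before and 50 after, RefSeq, GRCh38.p14) were searched on both strands for TGATGNAAN, the amino acid response element that ATF4 heterodimers bind. Among 26 list members with a RefSeq promoter, 5 held the letters, which were present in 3.67% of all 27305 promoters and in 1.58% of those of tested genes. The 3 shown are those of members whose level rose and which are often used as readouts of the response. They were chosen after their values were seen, and capitals mark the match on either strand.
ASNS: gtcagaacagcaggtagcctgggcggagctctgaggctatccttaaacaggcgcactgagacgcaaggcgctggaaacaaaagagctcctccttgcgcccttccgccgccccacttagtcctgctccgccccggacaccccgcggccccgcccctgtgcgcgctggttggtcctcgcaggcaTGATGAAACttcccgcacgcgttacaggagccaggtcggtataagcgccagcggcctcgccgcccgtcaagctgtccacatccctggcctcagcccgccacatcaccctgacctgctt
CHAC1: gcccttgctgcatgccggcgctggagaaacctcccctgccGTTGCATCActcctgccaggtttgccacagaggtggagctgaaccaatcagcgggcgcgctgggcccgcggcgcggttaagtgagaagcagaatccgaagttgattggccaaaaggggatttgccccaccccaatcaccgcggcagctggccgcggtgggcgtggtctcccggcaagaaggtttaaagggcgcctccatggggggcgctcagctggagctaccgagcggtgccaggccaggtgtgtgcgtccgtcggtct
ATF3: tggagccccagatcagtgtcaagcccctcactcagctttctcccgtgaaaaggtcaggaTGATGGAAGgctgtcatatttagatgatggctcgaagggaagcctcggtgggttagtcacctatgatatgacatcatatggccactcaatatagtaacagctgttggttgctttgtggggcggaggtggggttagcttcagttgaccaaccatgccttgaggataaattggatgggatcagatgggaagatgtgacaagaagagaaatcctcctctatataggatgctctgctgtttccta
The matches began 68 bases before the start of ASNS (chr7:97872359-97872658, minus strand), 210 bases before that of CHAC1 (chr15:40953221-40953520, plus strand) and 191 bases before that of ATF3 (chr1:212565157-212565456, plus strand). The windows of TRIB3, DDIT3 and SESN2, members that also rose, held no match. Each gene was searched in a single window, so any other starts of these genes were not covered. Because the list holds known ATF4 targets, its share of matches is not independent of the motif. Other motifs were searched as well. The E-box CAGGTG was in 9 of 22 epithelial junction promoters (18.9% of tested genes). The antioxidant response element TGACNNNGC was in 8 of 30 glutathione and NRF2 promoters (15.3%). A match is a description of these letters and not a measured binding site.

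ASNS, the asparagine synthetase, measured 42.2, 40.9 and 43.3 TPM in WT and 127, 111 and 122 TPM in OX res (1.49 ± 0.06, limma adjusted p 2.1e-08), and 66.7 to 72.4 TPM in 5-FU res. CHAC1, a glutathione-degrading enzyme, rose from 2.12, 2.93 and 3 TPM to 8.21, 8.30 and 7.15 TPM (1.28 ± 0.14, limma adjusted p 1.8e-05). ATF3, a stress-induced transcription factor, rose from 9.82, 9.65 and 9.74 TPM to 14.5, 16.0 and 17.7 TPM (0.66 ± 0.09, limma adjusted p 9.3e-05), and by 0.28 under median-of-ratios scaling. In each of the 3 genes every OX res library was above every WT library.

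GDF15, a secreted stress cytokine of the same list whose promoter window held no match (GRCh37 chr19:18485541-18499986, plus strand), measured 6.98, 7.44 and 6.69 TPM in WT and 37.3, 34.2 and 36.5 TPM in OX res. The log2 difference was 2.2 ± 0.07 (limma adjusted p 3.6e-09) and 1.82 under median-of-ratios scaling. GDF15 was higher again in 5-FU res, at 72.1 to 76.8 TPM, and the difference OX res minus 5-FU res was −1.02. DDIT4, an inhibitor of mTORC1, rose from 9.11, 9.72 and 9.40 TPM to 28.9, 30.5 and 32.6 TPM (1.6), but its 5-FU res libraries lay below WT at 6.18 to 6.74 TPM. The lipoprotein receptor VLDLR and the enzymes PCK2 and PHGDH fell by 0.56, 0.35 and 0.30.

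Hypoxia and glycolysis genes gave 22 higher and 5 lower of 31 tested (17 and 10 under median-of-ratios scaling), 12 of the higher ones beyond 1, with a median 0.48 above that of all genes. NDRG1, a hypoxia-induced protein, rose from 38.8, 34.9 and 36.5 TPM to 207, 209 and 206 TPM (2.47 ± 0.05, limma adjusted p 7.4e-10), and the lipase inhibitor ANGPTL4 rose by 2.14. PFKFB3, which makes the activator of phosphofructokinase, rose from 7.97, 6.39 and 7.12 TPM to 24.9, 26.5 and 26.5 TPM (1.73). The abundant enzymes of glycolysis itself did not move in 1 direction. The pyruvate kinase PKM, chosen after its values were seen, rose by 1.19, while the enolase ENO1 fell from 2139, 2133 and 2166 TPM to 984, 1044 and 1020.0 TPM (−1.08 ± 0.03, limma adjusted p 3.6e-09), and GPI and TPI1 fell by 0.38 and 0.26. Cholesterol synthesis genes gave 16 higher and 5 lower of 33 tested (11 and 16 under median-of-ratios scaling). STARD4 and HMGCS1, of sterol transport and an early step of the pathway, rose by 1.63 and 1.46, while SREBF1, EBP and LSS fell by 0.80, 0.79 and 0.36.

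Cytosolic ribosomal protein genes were the list with the most uniform direction. Of 78 tested members of 80, 1 was higher and 75 were lower on the TPM scale, 0 were higher and 76 lower under median-of-ratios scaling, and the median lay 0.80 below that of all genes. RPL24 measured 1955, 2130.0 and 1951 TPM in WT and 806, 734 and 808 TPM in OX res (−1.36 ± 0.05, limma adjusted p 8e-09), and RPL22 and RPS25 fell by 1.08 and 0.92. The 1 member that was higher was RPLP1, by 0.37 on the TPM scale and at −0.05 under median-of-ratios scaling.

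Ribosome biogenesis and nucleolar genes lay 0.31 below the all-gene median, with 20 higher and 17 lower of 51 on the TPM scale and 6 and 35 under median-of-ratios scaling. The spermidine synthase SRM fell from 204, 224 and 214 TPM to 91.3, 91.6 and 90.8 TPM (−1.22), the 2′-O-methyltransferase FBL by 0.58 and the nucleolar chaperone NPM1 by 0.45, while the RNA polymerase I subunit POLR1A and the processome protein UTP20 rose by 0.92 and 0.91, calls that were lost once the trend on length was removed (0.03 and 0.13). Oxidative phosphorylation genes gave 5 higher and 47 lower of 77, and 0 and 75 under median-of-ratios scaling, with a median 0.57 below that of all genes. NDUFB11, ATP5G1 and NDUFV1 fell by 0.89, 0.84 and 0.72. Ribosomal protein and respiratory chain transcripts are short as a class, and with the trend on length removed the medians of these lists were −0.56 and −0.31 relative to all genes.

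DNA replication genes gave 9 higher and 21 lower of 50 (0 and 41 under median-of-ratios scaling), with a median 0.48 below that of all genes. GINS2, a subunit of the replicative helicase, the licensing factor CDT1 and the cyclin CCNE1 fell by 0.76, 0.72 and 0.66. Mitosis genes did not follow them, with 32 higher and 4 lower of 46 (11 and 18 under median-of-ratios scaling) and a median 0.04 below that of all genes. KIF14, ASPM and CENPF, whose proteins act at the spindle and kinetochore, rose by 1.44, 1.40 and 1.38, and the Aurora kinase AURKB fell by 0.35.

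**Figure D3:**
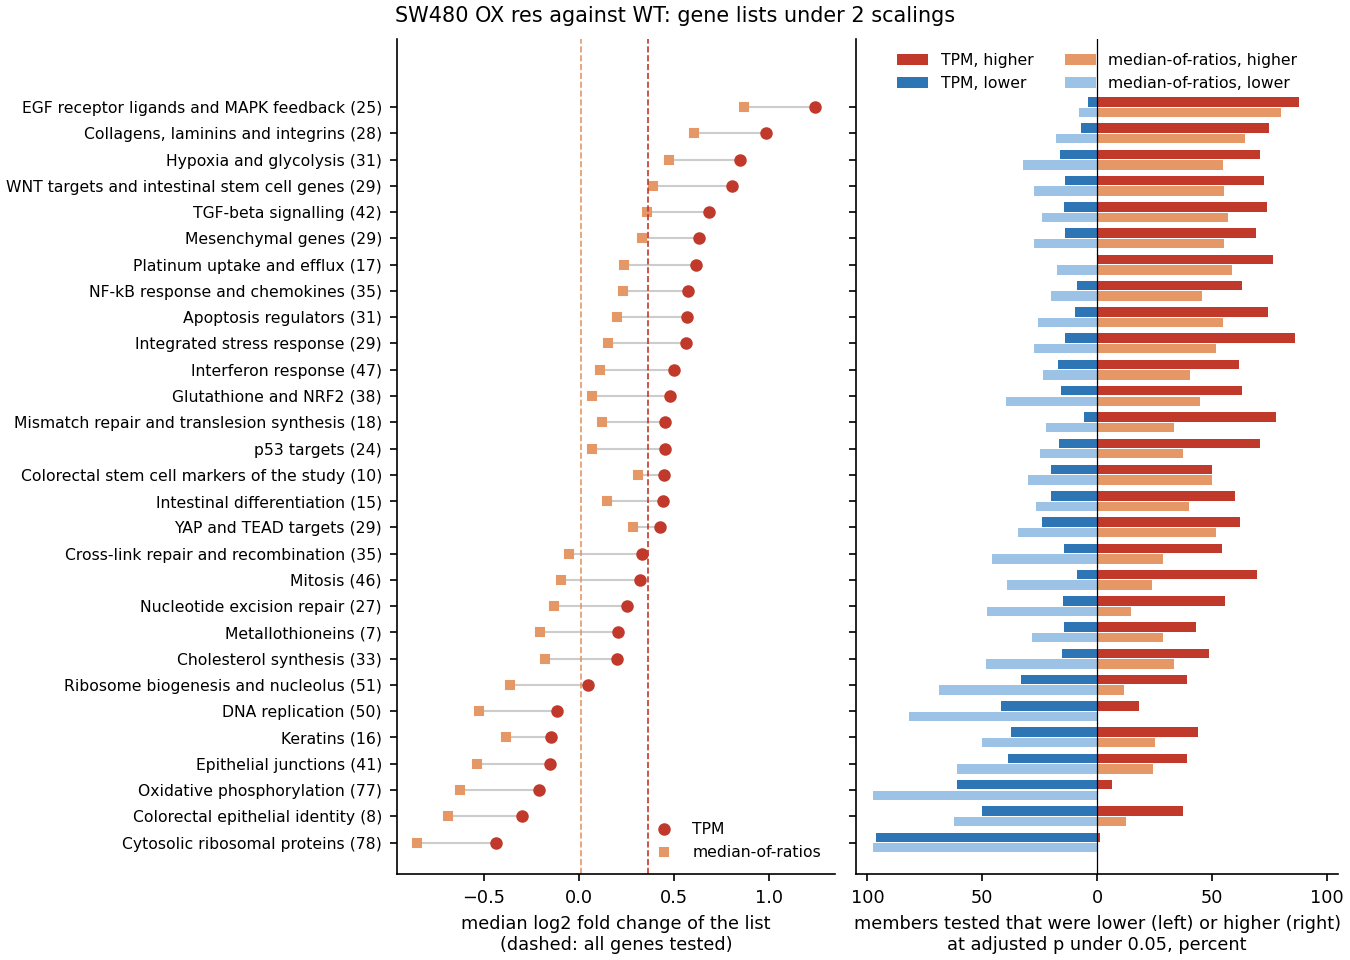
For each gene list, with its number of tested members, the left panel gives the median log2 difference OX res minus WT under TPM (circles) and median-of-ratios scaling (squares), with dashed lines at the all-gene medians, and the right panel the percentage of members higher and lower at a limma adjusted p under 0.05 under both. Ribosomal proteins and oxidative phosphorylation are lower on both scales, EGF receptor ligands and MAPK feedback are higher on both, and nucleotide excision repair and mitosis are higher more often on the TPM scale but lower more often under median-of-ratios scaling.

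Interferon response genes gave 29 higher and 8 lower of 47 tested (19 and 11 under median-of-ratios scaling), with a median 0.14 above that of all genes. The exonuclease ISG20, the antiviral factor SAMD9 and the signal transducer IRF9 rose by 2.44, 1.54 and 1.32, and MX1, IFITM2 and BST2 fell by 0.84, 0.83 and 0.68. NF-kB response genes and chemokines gave 22 higher and 3 lower of 35 tested (16 and 7 under median-of-ratios scaling). CSF2, a myeloid growth factor, REL, an NF-kB subunit, and the chemokine CXCL8 rose by 2.51, 1.83 and 1.81, the last to 2.26 to 3.15 TPM from below 0.1 TPM. The acute-phase gene SAA1 fell from 320.0, 373 and 323 TPM to 78.0, 72.6 and 73.8 TPM (−2.16 ± 0.07, limma adjusted p 4.5e-09), and SAA2 by 2.09, with reads that may be shared between the pair. The list of YAP and TEAD targets, which also holds TEAD1 and TEAD4 themselves, gave 18 higher and 7 lower of 29 (15 and 10 under median-of-ratios scaling). Its median lay 0.06 above that of all genes, of which 57.4% were higher. The phosphatase PTPN14 (2.05) and TEAD1 (1.64) rose, and WTIP (−0.87) and TEAD4 (−0.75) fell. Of the targets CTGF and CYR61, chosen after their values were seen, CTGF was higher (1.125) and CYR61 lower (−0.26).

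Markers of other cell types were low. Of 12 leukocyte markers 5 were tested and 4 were higher (4 under median-of-ratios scaling), and their summed level was 9.93 to 11.7 TPM in WT and 33.3 to 36.9 TPM in OX res, while the defining markers PTPRC, CD3D and MS4A1 were listed at 0 in all 6. CD4 was the leading one, from 0.331, 0.328 and 0.564 TPM to 6.51, 7.08 and 7.35 TPM (2.51). Fibroblast markers summed to 1.06 to 1.54 TPM in WT and 1.13 to 1.92 TPM in OX res with 0 of 2 tested members called either way, and endothelial markers summed to 2.08 to 2.41 and 1.41 to 2.60 TPM with 0 higher and 1 lower of 1 tested. Colorectal epithelial markers summed to 8767 to 9195 TPM in WT and 10390.0 to 11180.0 TPM in OX res. Most of that sum was KRT8 and KRT18, with means of 4183 and 3573 TPM in WT and 4959 and 4840 TPM in OX res. Under median-of-ratios scaling KRT8 was at −0.17 and KRT18 at 0.02, and neither passed. Of the epithelial list 3 were higher and 4 lower of 8 tested (1 and 5 under median-of-ratios scaling), with a median 0.66 below that of all genes. The intestinal homeobox factor CDX1 was listed at 0 in all 6.

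The difference was also laid out along the genome, for 12642 tested genes with a position in GENCODE v44 on GRCh37. Relative to all genes the median of chromosome 11 was −0.37 over 730 genes, with −0.37, −0.35 and −0.36 in the OX res libraries and −0.03, 0.03 and 0.00 in WT, and 26.9% of its genes lay above the all-gene median. Chromosome 15 stood at 0.31 over 399 genes, with 0.31, 0.32 and 0.31 in the OX res libraries and 71.7% of genes above the all-gene median. The OX res libraries thus lay close together on both chromosomes and apart from the WT libraries. The values in 5-FU res were −0.20 and 0.18, in HCT116 OX res 0.03 and 0.14, and in DLD-1 OX res 0.00 and 0.02. In SW480 5-FU res chromosome 13 (−0.46) and chromosome 14 (0.36) stood out instead, where OX res had −0.13 and 0.07.

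Within chromosomes, medians were taken over runs of 41 neighbouring genes with a mean of at least 5 TPM. Of 9158 such windows 81.4% lay within 0.3 of the all-gene median. The lowest was at the end of the short arm of chromosome 1 from B3GALT6 to ACOT7 (chr1:1167617-6453827), at −0.90, where 1 of 41 genes lay above the all-gene median and 36 did not overlap between WT and OX res, against 73.8% of all tested genes. Its value was −0.95 once the length trend had been removed and −0.04 in 5-FU res. Next were chr11:167784-2907005 from BET1L to CDKN1C (−0.81) and chrX:44382885-49106981 from FUNDC1 to CCDC22 (−0.79), where 5-FU res had −0.33 and 0.09 and the values with the length trend removed were −0.62 and −0.73. The highest were on chromosome 15, at chr15:67493005-75199224 (0.65, 5-FU res 0.15) and chr15:89164568-101618462 (0.61, 5-FU res 0.91), and on chromosome 5 at chr5:89688074-115177534 (0.58, 5-FU res 0.10). With the length trend removed these 3 were at 0.62, 0.50 and 0.39. Neighbouring genes share a library and the windows were picked by their value, so these are descriptions without a test, and DNA copy number was not measured.

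**Figure D4:**
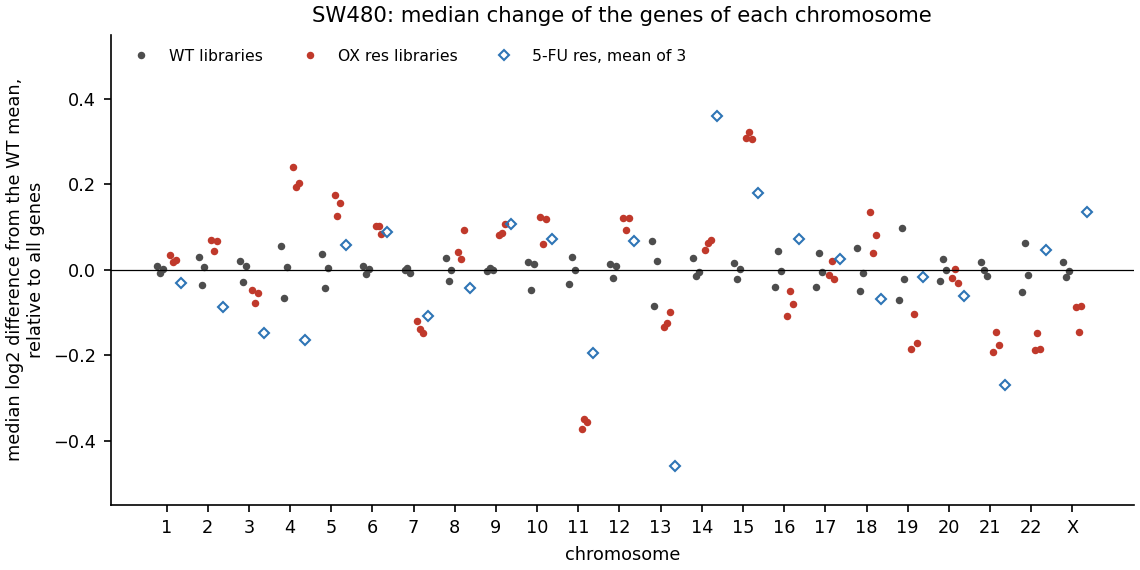
Median log2 difference from the WT mean of the tested genes of each chromosome, relative to the median of all genes, with 1 point per WT and OX res library and a diamond for the mean of the 3 5-FU res libraries. The OX res libraries lie lowest on chromosome 11, between −0.37 and −0.35, and highest on chromosome 15, at 0.31 to 0.32, while 5-FU res lies lowest on chromosome 13 and highest on chromosome 14.

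OX res was next compared with 5-FU res, to see which differences from WT separate the drugs within SW480. Both share the same WT libraries, so their values against WT are not independent and are given side by side only. The direct comparison called 647 genes (4.61%) higher in OX res and 911 (6.49%) lower by more than 1. Above 5-FU res stood SGK223, a pseudokinase related to PEAK1, at 72.7, 86.0 and 76.8 TPM in OX res and 0.0343, 0.0360 and 0.102 TPM in 5-FU res (6.23 ± 0.09, limma adjusted p 1.5e-11). WT held 37.3 to 43.8 TPM, so it was the 5-FU res libraries that lay far from WT. The tyrosine kinase SYK behaved likewise, at 264 to 278 TPM in OX res, 130.4 to 166 TPM in WT and 13.3 to 14.6 TPM in 5-FU res (4.20), and so did the synaptic protein CPLX2 (3.85). REG3A (5.33), which was listed at 0 in WT, and the small nucleolar RNA SNORA21 (4.94), whose value is uncertain, were also among the 5 largest.

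Below 5-FU res stood KISS1, which encodes the kisspeptin precursor, at 1.76, 1.35 and 0.863 TPM in OX res and 151, 147 and 160.3 TPM in 5-FU res (−6.06 ± 0.15, limma adjusted p 4.5e-10). In WT it was 3.27 to 4.77 TPM, again closer to OX res. The steroid dehydrogenase HSD17B2 (−4.94), the kinase ALPK2 (−4.86), the guanine deaminase GDA (−4.73) and CXCL14 (−4.66) followed. Among lists, all 7 tested members of the metallothionein list, 6 metallothioneins and MTF1, were higher in OX res than in 5-FU res, against 27.3% of all genes, with medians relative to all genes of −0.16 in OX res and −1.50 in 5-FU res against WT. Hypoxia and glycolysis genes were higher in OX res for 21 and lower for 7 of 31 (0.48 and −0.27), and glutathione and NRF2 genes for 26 and 9 of 38 (0.12 and −0.28). Interferon response genes were lower in OX res for 32 and higher for 3 of 47, against 34.3% of all genes lower, and mesenchymal genes were lower for 22 and higher for 6 of 29 (0.27 and 0.70). Ribosomal protein genes were higher in OX res than in 5-FU res for 48 and lower for 5 of 78, so their fall was smaller in OX res.

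The response of SW480 was set against those of HCT116 and DLD-1 by testing the difference of the OX res minus WT effects in a limma fit over all 27 libraries (15801 genes). The filter of that fit also let in list members that were too low to be tested in SW480, so member counts can exceed those above. The SW480 effect was the higher by more than 1 for 1127 genes (7.13%) and the lower for 1956 (12.4%) against HCT116, and for 1736 (11%) and 545 (3.45%) against DLD-1. The median gene shifted by 0.50 in HCT116 and 0.10 in DLD-1, and the library names that the labels give DLD-1 do not run on from those of the other lines. Against HCT116 the SW480 effect on p53 targets was lower for 23 and higher for 0 of 25, against 37.7% of all genes lower. The median of that list relative to all genes was 0.09 in SW480 and 1.41 in HCT116. The DNA replication list was higher in SW480 for 48 and lower for 1 of 50 (−0.48 and −2.02), against 24.4% of all genes higher, and the mitosis list for 45 and 1 of 46 (−0.04 and −2.2). Interferon response genes were lower in SW480 for 50 and higher for 1 of 56. Of the 56, only 47 had been tested in the SW480 fit. The others were low in SW480 and entered through other lines, so their part of this count was largely set by the filter. The median relative to all genes was 0.14 over the 47 in SW480 and 1.18 over the 56 in HCT116.

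Against DLD-1 the integrated stress response list was higher in SW480 for 29 and lower for 0 of 31 (0.20 and −0.46), against 41.2% of all genes higher. The EGF receptor ligand and MAPK feedback list was higher for 19 and lower for 3 of 29. DNA replication genes were lower in SW480 for 36 and higher for 0 of 50 (−0.48 and 0.30), against 18.5% of all genes lower, and oxidative phosphorylation genes were lower for 36 and higher for 5 of 77.

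**Figure D5:**
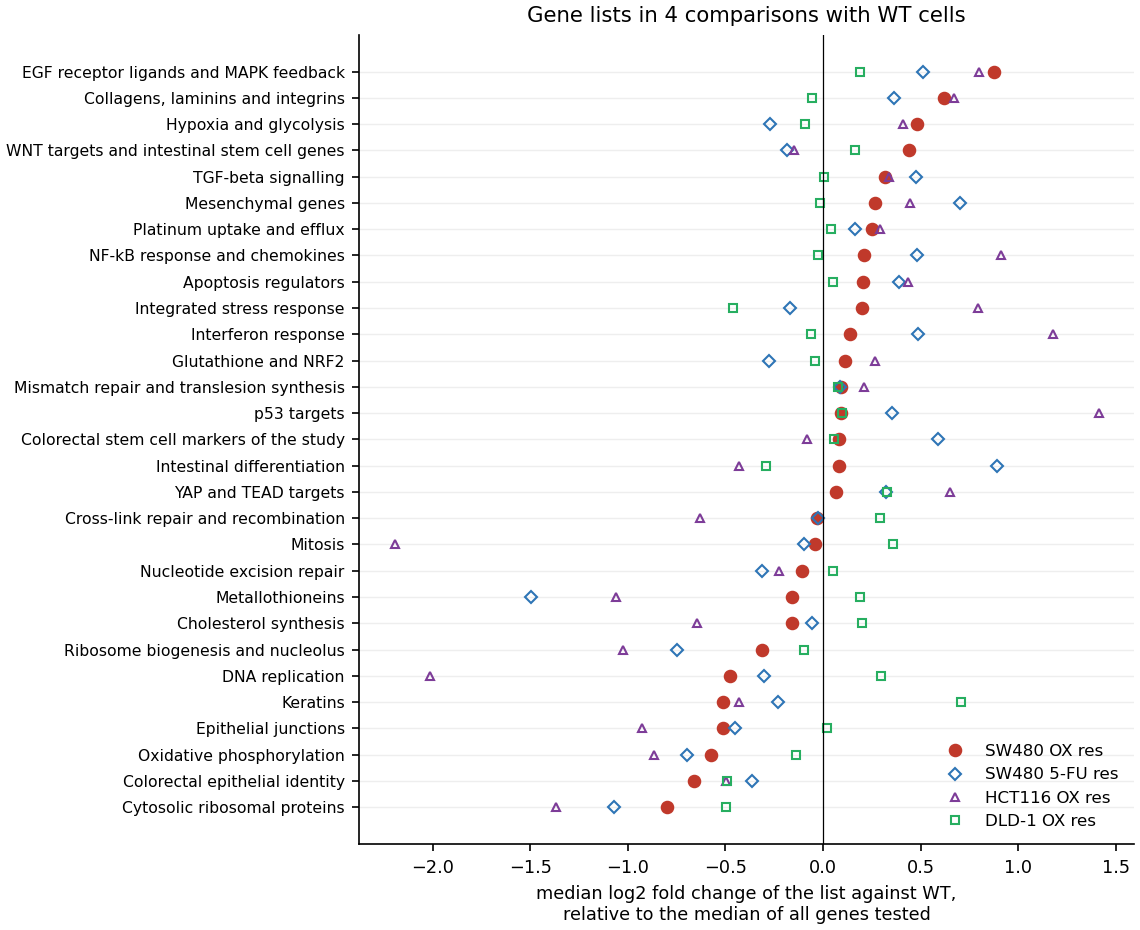
Median log2 difference of each gene list relative to the median of all genes, for SW480 OX res, SW480 5-FU res, HCT116 OX res and DLD-1 OX res, each against the WT libraries of its own line. The p53 and mitosis lists lie far from 0 in HCT116 (1.41 and −2.2) and near it in SW480 OX res (0.09 and −0.04). The DNA replication list lies below 0 in both, at −2.02 in HCT116 and −0.48 in SW480 OX res. The metallothionein list lies at −1.50 in SW480 5-FU res against −0.16 in OX res.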

How the data were processed

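The libraries were stranded (TruSeq mRNA) and the reads single (DNBSEQ-G400). Alignment to hg19 after Trimmomatic used TopHat2 2.1.1 with Bowtie2 2.2.8. The authors deposited FPKM per gene symbol, from Cufflinks per the methods or Cuffdiff 2.2.1 per the submitters' processing notes. FPKM were divided by their library sum (TPM) and log2(TPM + 1) was fitted with limma 3.58.1 (R 4.3.3, trend) over the 9 SW480 libraries, for genes at 1 TPM or more in at least 3, with Benjamini-Hochberg adjustment over all tested genes. Line differences were fitted over 27 libraries. Of the symbols, 22422 matched GENCODE v44 on GRCh37 directly and 1351 by synonym. On simulated data 98 of 100 genes changed by 1.3 and 100 of 100 changed by 2 (log2) were recovered for OX res against WT. For the differences from HCT116 and DLD-1, 93 and 96 of 100 changed by 1.3 were recovered. The simulated libraries had no shift of the median gene, no ribosomal change and no trend on length, so the effect of scaling on the calls was not covered.

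The members and the 32 gene lists were chosen with earlier results of these data known. Named genes were drawn from the 10 largest non-overlapping changes in each direction, up to 3 members with the largest changes in each direction per list, the stem cell markers, a set of drug resistance genes, and the 5 largest differences in each direction from 5-FU res and from each other line. Genes outside this rule are said to be so, not all genes that it gives are printed, and 5 whose call was lost on leaving out a library are given in the closing section alone. Alternatives were median-of-ratios scaling, FPKM as deposited, quantile normalization, a pseudocount of 0.1, a mean of 5 TPM, removal of a lowess trend on transcript length (span 0.3), a replicate block, fits on the compared groups alone, and leaving out each library. Same-numbered libraries had deviations correlated between −0.159 and 0.174, so the numbers did not pair the samples. FPKM hold no read counts, so no count model was run and counting intervals are not given.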

Additional observations from a re-analysis of the deposited data

Results flagged for a closer look

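The 5 largest differences in each direction between the OX res effect of SW480 and that of each other line were tested as differences of effects with limma over 27 libraries, with n = 3 libraries per group, and all 20 passed an adjusted p of 0.05. They were picked by their size in this same fit, so that they passed is no further evidence. Each value is the SW480 effect minus the other effect on the log2(TPM + 1) scale.

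Against HCT116, EREG differed by 7.38, since it was 2.35 in SW480 and −5.03 in HCT116, where epiregulin was 47.3 to 53.6 TPM in WT and 0.519 to 0.669 TPM in OX res. TNS4, an adhesion protein, differed by 5.78 (1.43 and −4.35). KRTCAP3 differed by 5.61 (0.56 and −5.05), and REG3A by 5.52 (5.44 and −0.08). AP1M2 differed by 5.25 because its fall was far larger in HCT116 (−6.64) than in SW480 (−1.40). Epithelial AP1M2 thus fell in both lines, whereas EREG went in opposite directions.

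The serum amyloid genes SAA1 and SAA2 differed from HCT116 by −6.14 and −5.03, with −2.16 and −2.09 in SW480 and 3.98 and 2.93 in HCT116, and their reads may be shared. MIA differed by −4.15 (−0.75 and 3.41). The placental alkaline phosphatase ALPP, which has near-identical relatives, differed by −4.11 (−1.84 and 2.27), and the neurotrophin NTF3 by −4.05 (−1.84 and 2.21). These 5 genes were below WT in SW480 OX res and above WT in HCT116 OX res.

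Against DLD-1, the small nucleolar RNA SNORA81 differed by 6.16 (2.91 and −3.25) with the least precise fit of the 20 (limma adjusted p 0.007). REG3A differed by 5.44 and was listed at 0 in all 6 DLD-1 libraries. SERPINI1 differed by 5.29 (4.68 and −0.60), SH3BGRL by 5.15 (3.20 and −1.95) and the uncertain SPRY4-IT1 by 4.76 (3.6 and −1.17). In the other direction ALPP differed by −5.65 (−1.84 and 3.81) and the LIM protein ZNF185 by −4.41 (−1.58 and 2.83). KRTAP3-1 differed by −3.96 (0.64 and 4.6), IGFL1 by −3.71 (1.1 and 4.81) and the arginine deiminase PADI1 by −3.67 (−1.2 and 2.47). ALPP therefore differed from both other lines in the same direction, and REG3A rose in SW480 alone of the 3 lines. The library names of DLD-1 do not run on from those of the other lines, and any difference in when they were made cannot be told apart from the line.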

How the results depend on the processing

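The counts of changed genes moved with the scaling. For OX res against WT the 1930 higher genes became 2920 with a pseudocount of 0.1, 834 under median-of-ratios scaling, 590 with FPKM as deposited, 625 with quantile normalization and 569 with the trend on length removed, and the 171 lower genes became 261, 551, 508, 547 and 402. For OX res against 5-FU res the lower count was 578 at a mean of 5 TPM. The lower count against HCT116 was 1245 at a mean of 5 TPM and 1245 with FPKM. Against DLD-1 the higher count was 2851 (pseudocount), 1139 (median of ratios), 778 (FPKM), 911 (quantile) and 864 (length), and the lower count 913, 832 and 900 (median of ratios, FPKM, quantile). Chromosome 11 stood at −0.32 with the length trend removed, and chromosome 15 at 0.34 at a mean of 5 TPM and 0.24 with the length trend removed.

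Leaving out each library gave 1557 (without WT replicate 2) to 2319 (without WT replicate 1) higher and 158 to 180 lower genes against WT, 599 to 686 and 789 to 938 against 5-FU res, 1051 to 1230 and 1774 to 2099 against HCT116, 1431 to 2046 and 527 to 564 against DLD-1, and 0.29 to 0.33 for chromosome 15. Calls of ACTA2 (−0.37), BAD (−0.22), BTG2 (−0.34), EPHB3 (−0.26) and ITGB5 (−0.16) were each lost without at least 1 library. The replicate block gave 1932 higher and 176 lower genes against WT, and the numbers did not pair the samples.

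Values that changed sign were CD44 (−0.32 median of ratios, −0.34 FPKM, −0.0874 quantile, −0.45 length, and −0.0136 without WT replicate 2 to 0.175 without WT replicate 1), MT2A (−0.27 and −0.29) and RPLP1 (−0.0502 and −0.0680) under median of ratios and FPKM, ATP7B (−0.0593) and ERCC6 (−0.0353) with the length trend removed, POU5F1 (−0.18, quantile) and NANOG (0.0247, without WT replicate 1). The cause was not tested. FPKM carry no counts, so precision at low levels is unknown.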

Other observations

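The HOXA cluster on chromosome 7, whose homeobox factors set positional identity along the body axis, was looked at after its values were seen, with no test of the group. All 11 tested HOXA genes were below 0 on the TPM scale, 9 without overlap between WT and OX res against 73.8% of all tested genes, and their median relative to all genes was −1.41, or −1.26 with the trend on length removed. The medians of the single OX res libraries were −1.32, −1.44 and −1.48, those of WT lay between −0.05 and 0.06, and those of 5-FU res were −0.68, −0.80 and −0.76. HOXA10 (GRCh37 chr7:27210224-27219880, minus strand) measured 26.2, 25.8 and 25.1 TPM in WT, 4.01, 4.23 and 5.74 TPM in OX res and 19.6 to 21.6 TPM in 5-FU res (−2.25 ± 0.11 against WT, limma adjusted p 7.1e-08). HOXA9 fell from 60.9, 52.6 and 55.5 TPM to 15.3, 13.7 and 13 TPM (−1.94 ± 0.08, limma adjusted p 3.2e-08) and HOXA7 by 1.49, whereas HOXA13 was at −0.18 and did not pass (limma adjusted p 0.37). The other clusters did not share this direction, with medians of 0.29 over 9 HOXB, −0.01 over 8 HOXC and 0.25 over 5 HOXD genes, and HOXB4, HOXB3 and HOXB13 rose by 1.3, 1.27 and 0.91.

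Further families of housekeeping complexes, also chosen after their values were seen, lay with the cytosolic ribosome. Of 74 mitochondrial ribosomal protein genes 73 were below the all-gene median, with a median of −0.66 relative to it, or −0.42 with the trend on length removed. Of 37 tested proteasome subunit genes 36 were below it, with a median of −0.59, or −0.47 with the trend on length removed.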
